A study of Mus musculus with 6 samples.

Results

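The 46 genes described here encode the contractile apparatus of skeletal muscle and the proteins that build, trigger and fuel it. Their RNA was measured in germs of the lower first molar from newborn mice, and muscle is not a tissue of the tooth itself. The genes were chosen as a list by name, from what they are known to do in muscle, and each was read from the array probes whose RefSeq accession maps to it. They were covered by 76 probes, out of 41174 gene probes that named 17178 genes in all. Where several probes read a gene, the probe with the highest mean signal was used, which was a choice among probes for 19 of the 46. On 3 or more of the 6 arrays 43 of the 46 genes were well above background, and these were tested among 26677 features (named genes, and probes without a name). The remaining 3, Myod1, Myf5 and Myf6, were dimmer than that.

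Skeletal muscle contracts when myosin heads on the thick filaments pull on thin filaments of actin, within repeating units bounded by Z-discs. A nerve signal opens calcium stores, calcium binds troponin on the thin filament, and tropomyosin moves aside to let myosin bind. Many of these proteins exist in forms that are used at different stages or in different fibres: embryonic and neonatal myosins precede the adult ones, and fast fibres use other troponins than slow fibres. The muscles of the tongue and jaw lie close to the molar germs, and skeletal muscle of newborn mice is still changing from early to adult forms.

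The samples came from mice of the 129/Sv strain at postnatal day 0, all labelled male. By the labels, 3 samples were wild type and 3 were Perp-null, and each was called a biological replicate. Perp is a protein of the desmosome, an adhesive junction of epithelia. The labels do not say which allele was used, how many animals or germs made up a sample, or how the germs were freed of surrounding tissue. In such bulk RNA, fewer cells of a type and less RNA per cell cannot be told apart. Each array is named here by its label, WT1 to WT3 and PN1 to PN3. Signals are log2 values relative to the 75th percentile of the same array, so a value of 0 is the brightness at the 75th percentile of the gene probes. Levels of different genes are not compared, because probes differ in brightness for the same amount of RNA.

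The labels of the scanner files conflict with the genes that check them. Perp itself read 5.96, -5.06 and 5.91 on the WT arrays and 5.87, -6.81 and 5.97 on the PN arrays, in the order of their numbers. It was low on WT2 and PN2 and high on the other 4 arrays, so its signal went against the label on WT2, PN1 and PN3. Xist and the Y-linked genes Ddx3y, Eif2s3y and Kdm5d went against the male label on WT2, PN1 and PN2. The authors' value table, a second deposit of log2 values, has 6 columns under the same labels. In it Perp read 17.01, 16.95 and 16.98 in the WT columns and 7.51, 8.24 and 7.26 in the PN columns, which follows the labels in all 6. The Xist and Y-linked values went against the male label in its columns WT3, PN1 and PN3. For 5 of the 6 scanner files a table column had the same ranks over all probes, but for 4 of these 5 the column carried another label. The scanner files WT1, WT2, WT3, PN1 and PN2 matched the columns WT1, PN1, WT2, WT3 and PN3, in that order. The scanner files WT2 and PN1 thus stand in the other group in the table. The scanner file PN3 matched no column, and the column PN2 matched no scanner file, so the 2 deposits together hold 7 distinct arrays. Every result below is therefore given by source, and "PN3" or "PN2" means the array or column with that label. All wild-type scanner files came from 1 slide and all Perp-null ones from another, so slide and labelled group cannot be told apart. As a check of the tissue, the 5 enamel genes that were measured gave summed signals of 7.08 to 7.92 on the WT arrays and 6.80 to 7.66 on the PN arrays.

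In the scanner files 6 of the 43 muscle genes stood at least 1 log2 unit higher on PN3 than on every other array. These were Myl1, Myog, Myh8, Tnni2, Tnnc2 and Acta1. Only 19 of the 26677 features did so (0.0712%). A further 10 of the 43 were highest on PN3 by less, which made 16 of 43 against 7.49% of all features. The upstream sequences of 5 of these 6 genes, and of Tnnc1 as a gene that was not high on PN3, are shown because the 6 genes were high on the same array. Each is the 250 bases before the transcription start in RefSeq, build GRCm38.p6, read 5′ to 3′ on the strand of the gene, with E-boxes in capitals. An E-box, spelled CANNTG, is the short sequence bound by myogenic factors such as MyoD and myogenin and by many other proteins.

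The windows lie at chr8:123894776-123895025 (minus strand) for Acta1, chr2:164779735-164779984 (minus) for Tnnc2, chr1:66945057-66945306 (minus) for Myl1, chr11:67276874-67277123 (plus) for Myh8, chr1:134289754-134290003 (plus) for Myog and chr14:31208062-31208311 (plus) for Tnnc1.
Acta1: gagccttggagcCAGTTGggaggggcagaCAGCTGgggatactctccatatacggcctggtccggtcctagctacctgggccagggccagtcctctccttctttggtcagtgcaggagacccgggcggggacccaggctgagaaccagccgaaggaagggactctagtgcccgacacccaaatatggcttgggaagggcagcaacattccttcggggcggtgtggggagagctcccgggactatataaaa
Tnnc2: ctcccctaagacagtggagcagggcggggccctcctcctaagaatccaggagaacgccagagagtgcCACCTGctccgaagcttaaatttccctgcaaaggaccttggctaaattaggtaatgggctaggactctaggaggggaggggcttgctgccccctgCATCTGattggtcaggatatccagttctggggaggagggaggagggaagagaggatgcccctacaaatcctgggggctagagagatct
Myl1: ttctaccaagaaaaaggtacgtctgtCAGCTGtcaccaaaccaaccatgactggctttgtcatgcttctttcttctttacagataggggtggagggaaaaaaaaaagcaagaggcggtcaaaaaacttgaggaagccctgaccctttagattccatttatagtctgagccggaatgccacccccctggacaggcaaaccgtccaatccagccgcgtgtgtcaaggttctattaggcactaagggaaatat
Myh8: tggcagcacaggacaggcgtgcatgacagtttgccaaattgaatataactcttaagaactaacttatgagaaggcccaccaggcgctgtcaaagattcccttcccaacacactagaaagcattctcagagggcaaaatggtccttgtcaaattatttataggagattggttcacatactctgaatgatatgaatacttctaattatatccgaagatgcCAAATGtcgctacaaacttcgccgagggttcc
Myog: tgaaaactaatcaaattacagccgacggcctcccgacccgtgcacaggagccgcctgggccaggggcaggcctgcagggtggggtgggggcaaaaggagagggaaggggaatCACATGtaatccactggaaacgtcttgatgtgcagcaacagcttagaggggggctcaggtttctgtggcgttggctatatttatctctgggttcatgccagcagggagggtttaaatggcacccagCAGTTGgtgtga
Tnnc1: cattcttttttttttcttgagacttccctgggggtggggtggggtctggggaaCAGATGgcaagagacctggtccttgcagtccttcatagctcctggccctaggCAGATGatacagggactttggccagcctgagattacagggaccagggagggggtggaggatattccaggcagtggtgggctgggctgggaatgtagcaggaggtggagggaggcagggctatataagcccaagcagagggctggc

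Acta1, Tnnc2, Myog and Tnnc1 each hold 2 E-boxes in this window, and Myl1 and Myh8 hold 1. Of the 46 genes, 37 were found in the promoter table, with 41 windows. An E-box was found in 33 of the 41 (80.5%), against 66.2% of 32851 mouse promoter windows of the same length. The form CAGCTG, which is one of the sequences CANNTG covers, was found in 21 of the 41 (51.2%) and in 13.0% of all. TATAAA on either strand was found in 8 of 41 (19.5%) and in 12.4% of all, among them Acta1, Myl1 and Myh8. The CArG box, which serum response factor binds, was found in 5 of 41 (12.2%) against 1.47%, and Acta1 holds 1. The MEF2 consensus was found in 2 of 41 (4.88%) against 0.508%, and in none of the 6 windows shown. All motifs other than TATAAA read the same on both strands, so 1 search covered both. A match describes the letters of the window and nothing about binding in these samples.

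**Figure D1:**
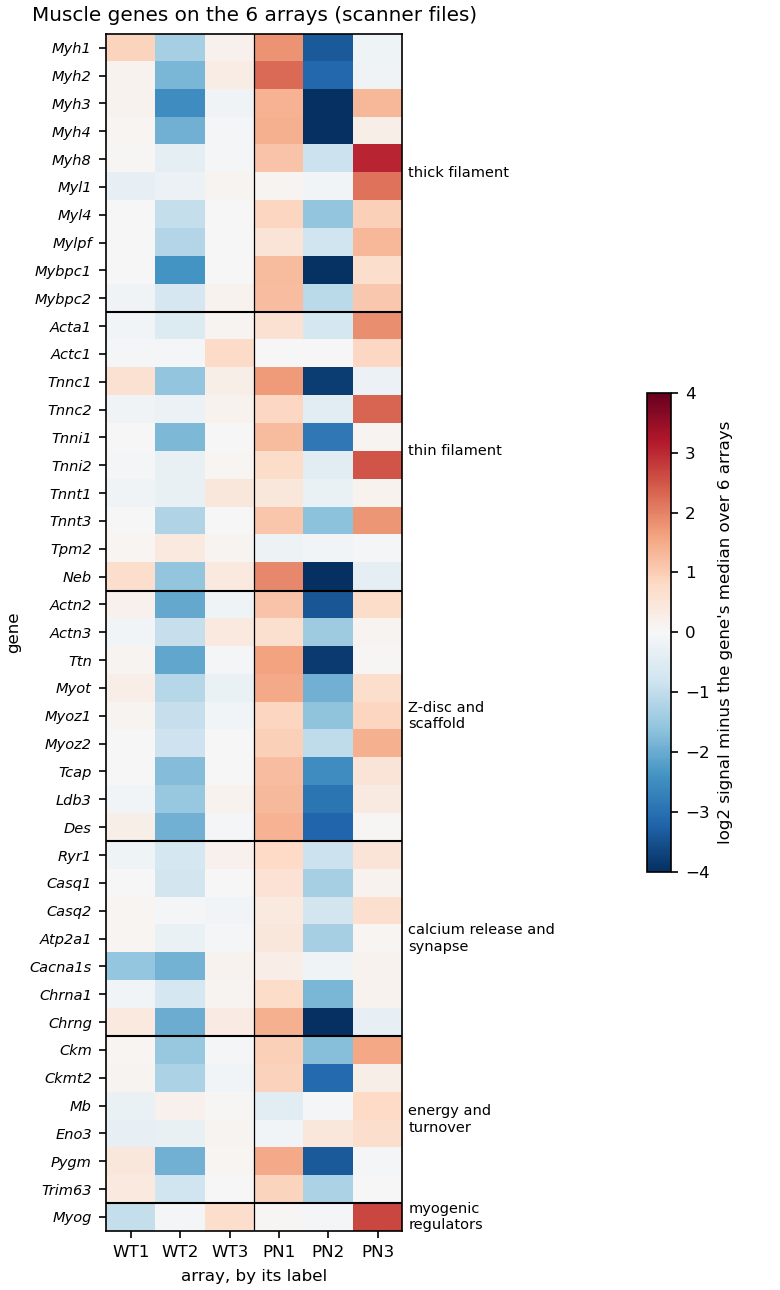
Each row is a muscle gene and each column an array of the scanner files. Colour gives the log2 signal minus the gene's median over the 6 arrays, and the colour scale ends at 4 in both directions. Myl1, Myh8, Tnni2, Tnnc2, Acta1 and Myog are reddest on PN3, whereas most other rows are reddest on PN1 and bluest on PN2.

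Among the thick filament genes, the neonatal myosin heavy chain and the fast light chains were highest on PN3, and the adult fast myosins were not. Myh8, the neonatal heavy chain, read -1.19, -1.63 and -1.27 on the WT arrays and -0.08, -2.09 and 1.81 on PN1 to PN3. Its PN3 signal was 3.70-fold that of the next array, PN1. Myl1, the essential light chain of fast fibres, read -0.51, -0.42 and -0.07 on the WT arrays and -0.05, -0.27 and 1.99 on the PN arrays. The 5 other arrays lay close together for Myl1, and PN3 was 4.12-fold above the highest of them. Mylpf, the regulatory light chain of fast fibres, read -0.16, -1.31 and -0.10, then 0.37, -0.92 and 1.21. It too was highest on PN3, by 0.84. Myl4, a light chain of embryonic muscle and atrium, was highest there by only 0.11, and its dimmer probe by 1.08.

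Myh3, the embryonic heavy chain, read -1.63, -4.26 and -1.91 on the WT arrays and -0.37, -5.97 and -0.44 on the PN arrays. PN1 and PN3 were level for this probe. Its other probe read -2.89, -5.09 and -2.89, then -1.40, -5.70 and 0.01, and was highest on PN3 by 1.42. The probes of Myh3 therefore disagreed, and so did those of Myh8, whose dimmer probe read -3.24 on PN1 and -4.94 on PN3. The adult fast heavy chains Myh1, Myh2 and Myh4 were all highest on PN1 and lowest on PN2, and their PN3 signal minus that of PN1 was -1.97, -2.39 and -1.17 log2 units. Myh1 spanned -5.96 on PN2 to -0.81 on PN1, with -2.78 on PN3 against -1.72, -3.92 and -2.41 on the WT arrays. PN3 thus lay within the WT range for this gene. The myosin-binding proteins C of slow fibres, Mybpc1, and of fast fibres, Mybpc2, were highest on PN1 with PN3 next, at differences of -0.57 and -0.15.

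Of the thin filament genes, the fast forms of the troponin complex were high on PN3 and the slow forms were not. Tnnc2, the calcium-binding subunit of fast fibres, read 0.24, 0.13 and 0.51 on the WT arrays and 1.20, -0.05 and 2.69 on the PN arrays. Tnni2, the inhibitory subunit of fast fibres, read -0.21, -0.42 and -0.06, then 0.61, -0.58 and 2.39. Tnnt3, the tropomyosin-binding subunit of fast fibres, read -0.88, -2.10 and -0.92, then 0.21, -2.54 and 0.86. PN3 was the highest array for all 3, followed by PN1. Over the WT mean, PN3 was higher by 2.40 log2 units for Tnnc2, 2.62 for Tnni2 and 2.16 for Tnnt3. The same differences were 0.03 for Tnnc1, 0.70 for Tnni1 and 0.15 for Tnnt1, the slow or cardiac counterparts. Fast and slow forms outside the troponins did not differ in this way. The myosin-binding proteins C rose by 1.3 (fast, Mybpc2) and 1.5 (slow, Mybpc1). The calcium store proteins rose by 0.38 (fast, Casq1) and 0.68 (slow, Casq2). Tnnc1 read -0.92, -3.12 and -1.31 on the WT arrays and 0.17, -5.34 and -1.76 on the PN arrays, so that it was highest on PN1 and lowest on PN2.

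**Figure D2:**
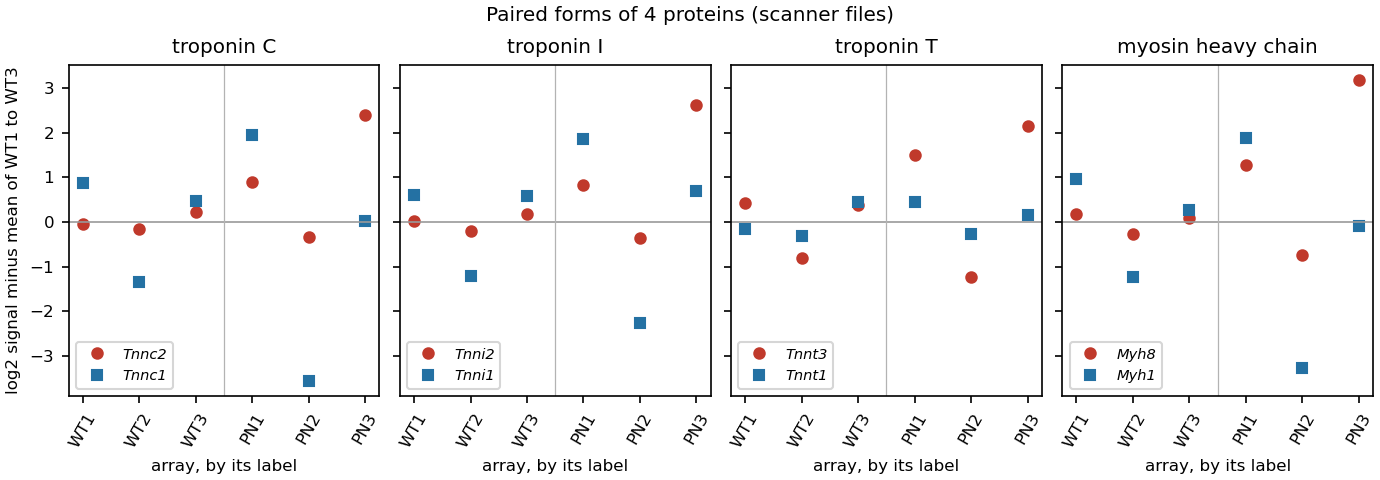
Points give the log2 signal of each array minus the mean of WT1 to WT3, for the fast (circles) and slow (squares) forms of 3 troponins and for the neonatal (circles) and an adult (squares) myosin heavy chain. On PN3 the circles lie at 2.40, 2.62, 2.16 and 3.17 and the squares at 0.03, 0.70, 0.15 and -0.10. The squares of Tnnc1, Tnni1 and Myh1 are highest on PN1 and lowest on PN2.

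Acta1, the actin of skeletal muscle, read 0.18, -0.26 and 0.39 on the WT arrays and 0.88, -0.43 and 2.15 on the PN arrays. PN3 was 2.42-fold the next array. Actc1, the actin of heart and of early skeletal muscle, read -0.81, -0.82 and 0.01, then -0.76, -0.75 and 0.07. Its PN3 and WT3 signals were nearly level, and the other 4 arrays lay together below them. Neb, the giant protein that runs along the thin filament, had the widest span of the 43, from -7.70 on PN2, where it was not well above background, to -0.61 on PN1. Tpm2, a tropomyosin that smooth muscle and other cells also make, behaved unlike the others. It read 2.37, 2.68 and 2.42 on the WT arrays and 2.09, 2.19 and 2.23 on the PN arrays, so all PN arrays lay below all WT arrays. Tpm2 was the only gene of the 43 whose groups did not overlap, which 7.05% of all features showed.

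Of the 9 Z-disc and scaffold genes, 7 were highest on PN1, 2 on PN3, and all 9 were lowest on PN2. Over all features 49.0% were highest on PN1, and in the second of 4 bins by mean signal, where most of the 43 muscle genes lie, 76.8% were, so the 7 of 9 is near that share. The 2 highest on PN3 were Myoz2, a calcineurin-binding protein of slow fibres, by 0.48, and Myoz1, its counterpart of fast fibres, by 0.01, and a dimmer probe of Myoz1 was highest on PN1. The 7 others were Actn2 and Actn3, the actinins that cross-link actin at the Z-disc, Ttn, the spring from Z-disc to midline, Myot, Tcap and Ldb3, which bind Z-disc proteins, and Des, the intermediate filament that ties Z-discs together. Their PN3 signal minus that of PN1 lay between -0.43 (Actn2) and -1.54 (Ttn). Of the 8 probes for Ttn, 7 were highest on PN1 and 1 on PN3.

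Of the 7 genes for calcium release and the nerve contact, 6 were highest on PN1 and 1 on PN3. Over all features 49.0% were highest on PN1, with 76.8% in the second bin by mean signal and 26.8% in the third. The 6 were Ryr1, the calcium release channel, Casq1, the calcium store protein of fast fibres, Atp2a1, the calcium pump of fast fibres, Cacna1s, the voltage sensor, and Chrna1 and Chrng, the alpha subunit and the fetal gamma subunit of the acetylcholine receptor. A dimmer probe of Atp2a1 was highest on PN3, by 0.76. Casq2, the calcium store protein of slow and heart muscle, was highest on PN3 by 0.27. Casq1, Casq2, Atp2a1 and Cacna1s had a higher mean signal than Ryr1, Chrna1 and Chrng, so the share of 76.8% does not serve for all 7. Cacna1s had a pattern of its own. It read -1.03, -1.36 and 0.66 on the WT arrays and 0.80, 0.40 and 0.68 on the PN arrays, so WT1 and WT2 lay apart below the other 4. Its second probe did not share this and read -8.29 on PN2 and -1.65 on PN1.

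Energy supply was represented by 6 genes, of which 3 were highest on PN3. Ckm, the muscle creatine kinase, read -3.30, -4.87 and -3.43 on the WT arrays and -2.41, -5.07 and -1.82 on the PN arrays. Mb, myoglobin, was highest on PN3 by 0.62 and Eno3, the muscle enolase, by 0.26. Mb was well above background on only 4 arrays. The mitochondrial creatine kinase Ckmt2, the glycogen phosphorylase Pygm and the ubiquitin ligase Trim63 were highest on PN1. Their PN3 signal minus that of PN1 was -0.70, -1.57 and -0.91.

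The myogenic regulators are the transcription factors that commit cells to muscle and drive their differentiation. Myog, the factor of differentiating muscle cells, read -6.93, -6.02 and -5.29 on the WT arrays and -5.95, -6.07 and -3.31 on the PN arrays. It was well above background on WT2, PN2 and PN3 only, so that PN3 alone stood clear of a low level. Its gap of 1.99 on PN3 is taken from WT3, where it was not well above background, so the size of the gap is uncertain. Myf6, a factor of maturing fibres, was well above background on 1 array, PN3. Myod1 and Myf5, the determination factors, were not well above background on any array.

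**Figure D3:**
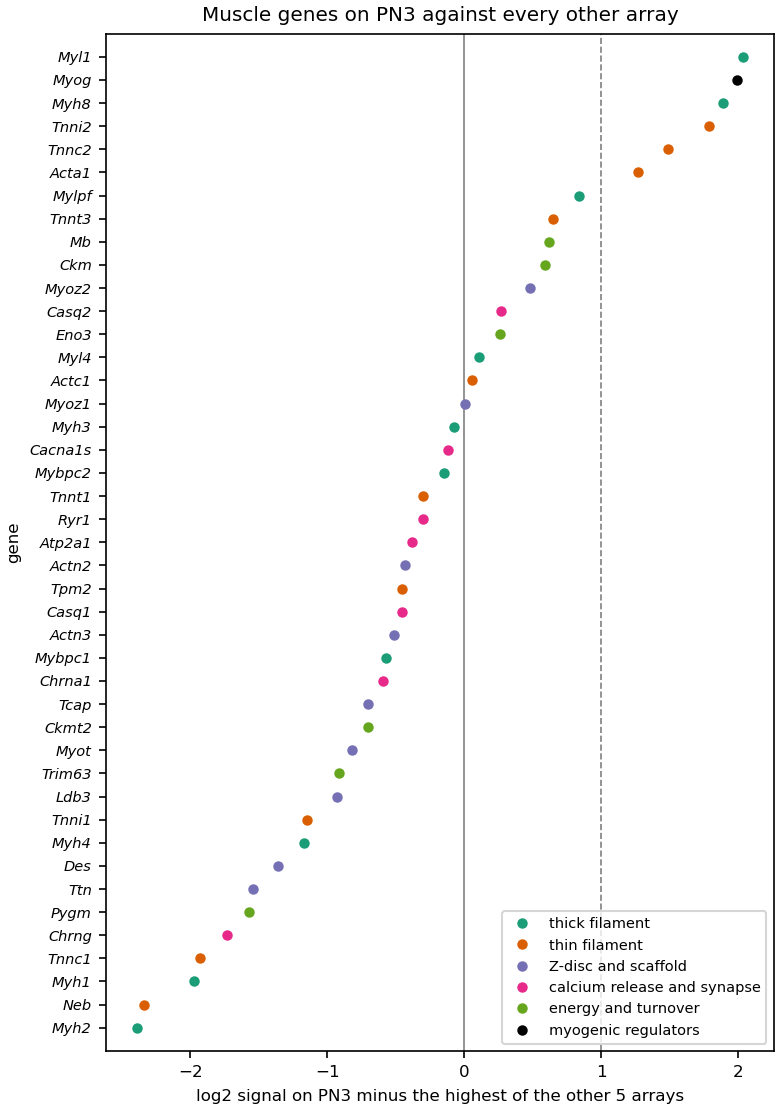
Each point is a muscle gene, coloured by role, at its log2 signal on PN3 minus the highest of the other 5 arrays. To the right of 0 lie the 16 genes highest on PN3. To the right of the dashed line at 1 lie Myl1 (2.04), Myog (1.99), Myh8 (1.89), Tnni2 (1.79), Tnnc2 (1.49) and Acta1 (1.27). The gap of Myog is uncertain, because its next highest array was not well above background.

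By stage and fibre form, PN3 was the highest array for 6 of 10 genes of fast fibres other than myosin heavy chains. It was highest for 3 of 5 embryonic and neonatal forms, 2 of 6 slow or cardiac forms and 0 of 3 adult fast myosins. The share over all features was 7.49%. The gap was at least 1 log2 unit for only 3 of the 10, 1 of the 5 and none of the other forms. These are counts over 1 array and carry no test. The order of PN1 and PN3 depended on the scaling of the arrays. Under quantile normalization 27 of the 43 were highest on PN3 (8.08% of all features), under median scaling 30 (2.34%), and under normexp background correction 12 (7.38%). Of the 6 genes with the largest gap, 5, 6 and 5 kept a gap of at least 1 log2 unit under these settings, and 4 did on raw median signal with quantile normalization. With the array PN1 left out, 31 of 43 were highest on PN3, against 9.22% of all features.

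PN1 and PN2 stood apart for dim probes in general. Negative control spots had a median raw signal that was highest on PN1, at 127, and lowest on PN2, at 32, with 90, 37.5 and 80 on WT1 to WT3 and 65.5 on PN3. Among all features, 49.0% were highest on PN1 and 45.1% lowest on PN2, and of the 43 muscle genes 25 were highest on PN1 and 34 lowest on PN2. Of the 43, 23 fell in the second quartile bin of all features by mean signal, where the median feature deviated from its own mean by 1.31 on PN1 and -1.12 on PN2. The median muscle gene there deviated by 1.80 and -2.59. In the third quartile bin the median feature deviated by at most 0.05 on any array, and 11 of the 16 muscle genes there were highest on PN3, against 11.4% of the features. Heart muscle genes, which are not part of the list, were highest on PN1 in 6 of 6 cases and on PN3 in none. The part of the dim-probe pattern in the values of the adult myosins, slow troponins and Z-disc genes was not tested.

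**Figure D4:**
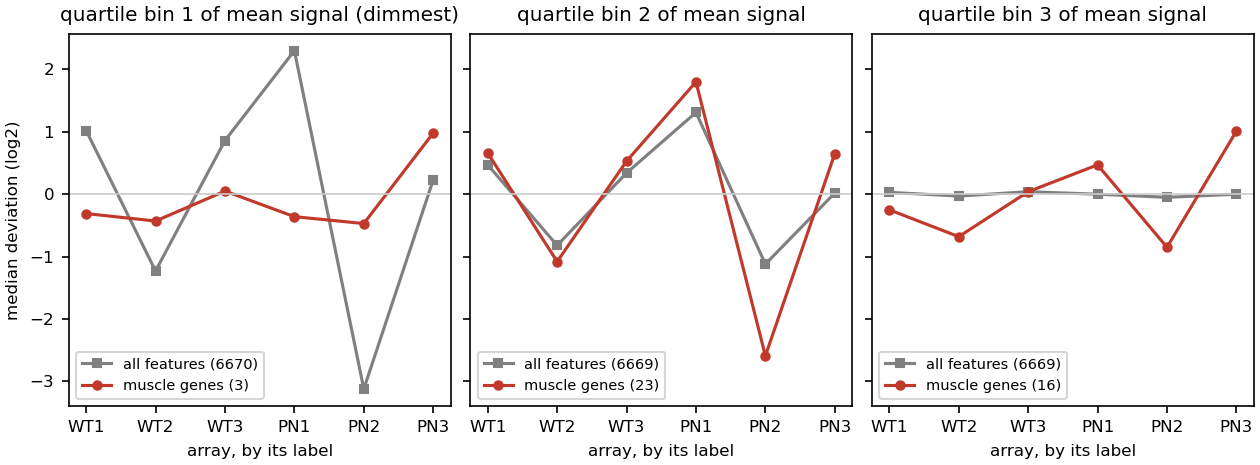
Features are split into quartile bins by mean signal and the 3 dimmer bins are shown. Points give the median, over all features (squares) or over the muscle genes (circles), of the log2 signal minus the feature's mean over 6 arrays. In the second bin both are highest on PN1 and lowest on PN2, and in the third the squares stay within 0.05 of 0 while the circles reach 1.01 on PN3.

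Between the labelled genotypes in the scanner files, none of the 43 muscle genes and none of the 26677 features (0.0%) had a limma adjusted p under 0.05. At an unadjusted p under 0.05 there was 1 of the 43, against 630 features (2.36%). That gene was Tpm2, lower on the PN arrays by a log2 difference of -0.32 with an SE of 0.13 (limma adjusted p = 1). Its other probe was lower on all PN arrays too. Of the 43, 30 had the higher mean on the PN arrays, against 39.0% of all features, and the median difference was 0.14 against -0.08. The count of 30 became 17 without PN1 or without PN3, 19 without WT2 or under normexp, and 42 without PN2. Myh8 differed by 1.24 with an SE of 0.89, and Tnni2 by 1.04 with an SE of 0.68 (limma adjusted p = 1 for both). Their PN means of -0.12 ± 1.95 and 0.81 ± 1.5 (SD, n = 3) rest on PN3, whereas their WT means were -1.36 ± 0.23 and -0.23 ± 0.18 (SD, n = 3). Without PN2 the median difference was 1.30, and over the 6 ways of leaving out 1 array it ran from -0.28 to 1.30.

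When only arrays with a Perp signal that matches their label were kept, PN2 stood alone against WT1 and WT3, and it was assumed to vary like the others. In that limma fit 31 of the 43 were called lower and none higher, against 39.7% and 5.71% of all features. The background of PN2 was the lowest of all arrays, as given above. When only arrays with male Xist and Y-linked signals were kept, PN3 stood alone against WT1 and WT3. There 5 of the 43 were called higher and none lower, against 0.105% and 0.015% of all features. They were Myh8, Tnni2, Tnnc2, Myl1 and Acta1, with log2 differences of 3.03, 2.53, 2.31, 2.28 and 1.87 and limma adjusted p from 0.00377 to 0.048. Perp is high on PN3, so this contrast does not compare the genotypes by that check. The genes are those already described as high on PN3, and the contrast gives no independent support.

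In the authors' value table, most muscle genes were highest in 1 of the columns PN2 and WT3. Of the 43, 20 were highest in PN2, the column with no matching scanner file, against 17.7% of all features. The column WT3, which matches the scanner file PN1, was highest for 18 of them, against 32.5%. In PN2, 7 of the 43 stood at least 0.5 log2 units above every other column, against 0.746%. Ckm read 7.45, 7.57 and 7.37 in the WT columns and 7.70, 9.16 and 7.80 in the PN columns. Myoz2 read 7.57, 7.59 and 7.41, then 8.02, 9.28 and 8.09. Tnnc2 read 11.19, 11.49 and 12.35, then 11.23, 13.01 and 11.18. For Ckm and Myoz2 the other PN columns also lay above all WT columns, while for Tnnc2 they did not. The other 4 were Myog, Mybpc2, Myl1 and Myot, with gaps of 1.24, 0.74, 0.55 and 0.52. Of the 43, 11 were highest both on the scanner file PN3 and in the table column PN2, against 0.93% of all features. Myh8 was not among these 11: its column PN2, at 10.75, was level with WT3 at 10.79. Markers of other cells were also often highest in the table column PN2, with 4 of 9 smooth muscle and pericyte genes, 3 of 6 of surface oral epithelium, 2 of 4 of fat, 2 of 5 erythroid genes and 0 of 6 heart genes. Their part in the values of the muscle genes was not tested.

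The table's genotypes, which Perp follows, differed for 10 of the 43 genes at a limma adjusted p under 0.05, against 23.5% of all features. Of these 6 were lower in the PN columns, against 14.9% of all, and 4 higher, against 8.64%, and the median difference of the 43 was -0.21 against 0.01. Tnnc1, the slow troponin C, read 10.22, 9.73 and 11.35 in the WT columns and 8.55, 8.16 and 7.37 in the PN columns, a log2 difference of -2.41 (SE 0.47, limma adjusted p = 0.0216). Neb differed by -2.04, Des by -1.66, Myh1 by -1.63, Tcap by -1.61 and Chrng by -0.72. Within each of these 6 genes the WT and PN columns did not overlap, but this also held for genes not called, such as Myh3 and Casq1. How many of all features did so in the value table was not counted. Of the genes that were higher, Mb read 6.61, 6.79 and 6.25, then 7.82, 8.39 and 7.99, a difference of 1.52 (SE 0.22, limma adjusted p = 0.0216). Its WT values lay below the lower quartile of all probes in those columns, 6.91 to 6.92. In the scanner files, whose labelled groups hold partly other arrays, Mb differed by 0.12 with an SE of 0.82. The cause of the unlike values in the 2 sources was not tested. In the value table Myog was higher by 1.28, Mybpc2 by 1.01 and Ryr1 by 0.71.

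**Figure D5:**
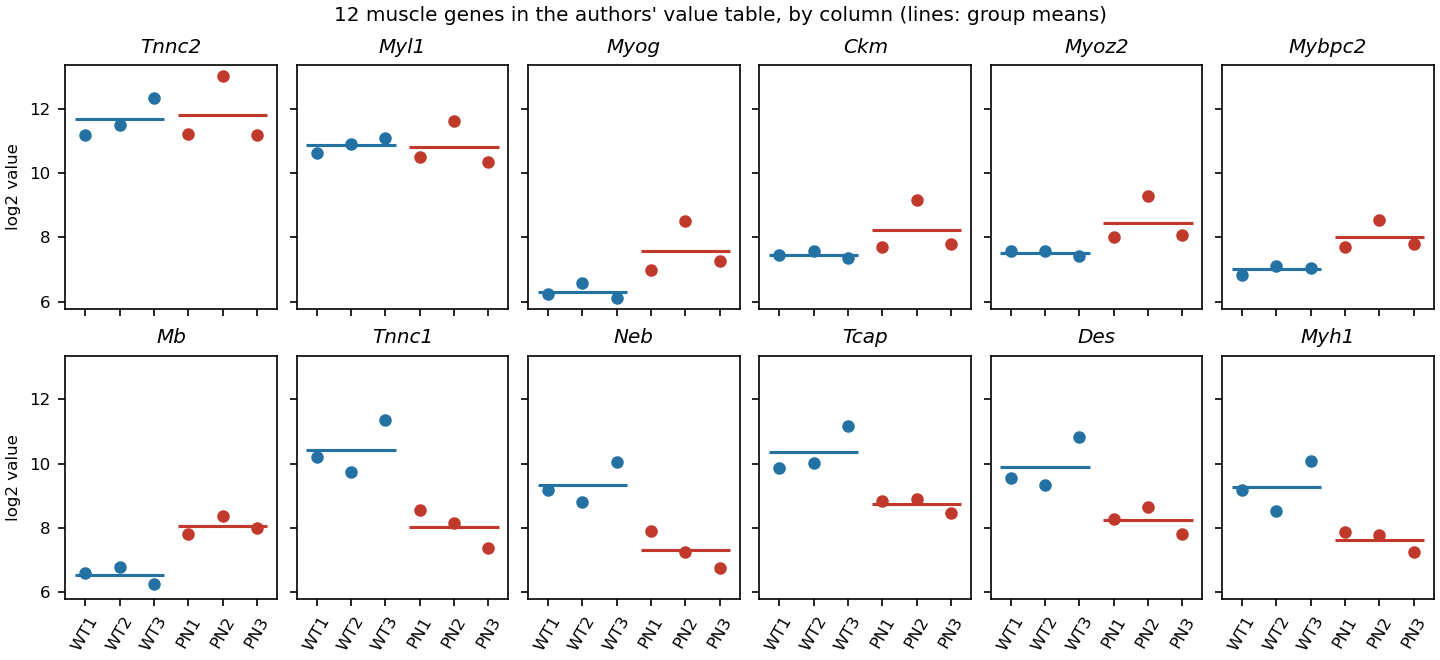
Points give the log2 value of 12 muscle genes in each column of the authors' value table, and lines give the means of the WT and PN columns. Tnnc1, Neb, Tcap, Des and Myh1 are lower in all PN columns, Mb, Myog and Mybpc2 are higher in all of them, and Tnnc2, Myl1, Ckm and Myoz2 are highest in column PN2.

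With the column PN2 left out, none of the 43 and 1 feature was called, and the smallest limma adjusted p of a muscle gene was 0.0693. The differences of the 6 lower genes moved little, to -2.47 for Tnnc1, -2.02 for Neb, -1.86 for Des, -1.70 for Myh1, -1.70 for Tcap and -0.70 for Chrng. Those of the 4 higher genes became 1.35 for Mb, 0.82 for Myog, 0.75 for Mybpc2 and 0.70 for Ryr1. Leaving out the columns against the male label called none of the 43 and turned the median difference to 0.41. Leaving out other columns called 1 of the 43 and 787 of the 26677 features without PN3, and 4 and 3188 without WT1. Called without WT3 were 6 of the 43 and 2662 features, without WT2 8 and 5320, and without PN1 8 and 5899. The raw background of the matched scanner files was 80 to 127 in the WT columns and 32 and 37.5 in the PN columns PN3 and PN1. Myod1, which no scanner file showed well above background, was also higher in all PN columns, at 6.36, 7.12 and 6.74 against 6.07, 5.87 and 5.86. Of the 6 heart muscle genes tested 5 were called lower in the PN columns with all columns kept, against 14.9% of all features. The part of background in the calls of the muscle genes was not tested. Of the 43, 21 had opposite signs of the difference in the table and in the scanner files. The share of all features that did so was not counted, so the 21 cannot be read as particular to the muscle genes. The 2 sources share 5 arrays and are not independent, and the scanner files WT2 and PN1 stand in the other group in the table.

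The wider muscle program was read from 4 further lists of muscle genes that are not among the 46, with 69 of 81 genes tested. In the scanner files none of the 69 was called between the labelled genotypes, 22 were higher and 47 lower on the PN arrays (39.0% of all features were higher), and the median difference was -0.13. On PN3, 9 of the 69 were highest, against 7.49% of all features, and 3 by at least 1 log2 unit: Cox6a2 by 1.32 and Cox8b by 1.13, muscle forms of subunits of cytochrome oxidase, and Myom2, an M-band protein of the sarcomere, by 1.18. By list, the muscle metabolism genes had 6 of 12 highest on PN3, the other sarcomere genes 2 of 21, the membrane and excitation genes 1 of 21 and the myogenic and fusion genes 0 of 15, the last 3 of these lists being near or below the share of all features. In the value table, of the 69, 4 were called higher and 16 lower, against 8.64% and 14.9% of all features, and these calls come from the same fit as the 10 above.

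The genes with the smallest limma p in each of these lists were named by rule, with values from the scanner files. Of the sarcomere list they were Pdlim3, Ankrd23 and Synpo2l, with log2 differences of -0.36, 0.53 and -1.38. Of the membrane list they were Dysf, a membrane repair protein, Stac3, a partner of the voltage sensor, and Srl, a calcium store protein, with -0.74, -0.47 and 0.43. Of the metabolism list they were Fabp3, a fatty acid carrier, and the glycolytic enzymes Pfkm and Pgam2, with -0.53, -0.19 and 0.18. Of the myogenic list they were Unc45b, a myosin chaperone, Mef2c, a transcription factor, and Mstn, the growth inhibitor myostatin, with -0.52, -0.36 and -1.47. None of the 12 had a limma adjusted p under 1. Pgam2 was highest on PN3 by 0.40, and Unc45b was lowest there.

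No gene of the 13 marker lists for other cells was at least 1 log2 unit higher on PN3 than on every other array, although Cilp, a matrix gene in none of the lists, was higher there by 3.48. The summed signal of the 43 muscle genes was 4.0 to 4.52 on the WT arrays and 5.01, 3.86 and 5.54 on PN1 to PN3. For 9 smooth muscle and pericyte genes it was 4.77 to 5.31 on the WT arrays and 4.59 to 5.11 on the PN arrays, with the lowest value on PN3, and 1 of the 9 was highest on PN3. For the 6 heart genes it was -0.89 to 0.71 and -1.48 to 1.84, with 0.08 on PN3. For 5 tendon genes it was 1.86 to 2.36 and 1.58 to 1.67, and for 5 nerve sheath genes 2.54 to 3.12 and 2.74 to 3.16. None of these tendon, nerve sheath or heart genes was highest on PN3. Of 7 neuron genes 3 were highest on PN3, and their summed signal was 3.38 to 3.69 on the WT arrays and 3.74, 3.21 and 4.05 on PN1 to PN3. Of 7 bone genes 2 were highest on PN3, and their summed signal was 6.54 to 6.97 on the WT arrays and 5.44, 5.35 and 6.99 on PN1 to PN3. The part of nerve and bone in the PN3 values was not tested.

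The profile of the median muscle gene was 0.18, -0.89 and 0.30 on the WT arrays and 1.01, -1.45 and 0.75 on the PN arrays. Likeness to it was ranked only among named genes outside the list that spanned at least 2.98 log2 units over the arrays. That bound is the median span of the muscle genes, so genes of narrower span were left out. Within it the most alike were Gnat2, Krt71, Art1, Hrc, Fat3, Klk1b4, Prlr, Ccn3, Myl3 and Tm4sf5. Likeness was the root mean square difference over the 6 arrays, from 0.20 for Gnat2 to 0.34 for Tm4sf5. Of the 10, Art1, Hrc and Myl3 belong to the wider muscle lists. The profile is shared widely: 17.5% of all features lay within 0.69 of it, the median difference of the muscle genes themselves.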

How the data were processed

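Total RNA of lower first molar germs was amplified, labelled with Cy3 and hybridised to a 1-colour mouse array, 1 array per sample, per the labels' protocols. Spots were read by the authors with Agilent Feature Extraction (10.3 in the submitters' processing notes, 10.5.1.1 in the file headers). The deposited scanner files give intensity on a linear scale, already background-subtracted in the column used. The authors' deposited value table holds log2 values. Their scale was read from the values: the 6 columns have nearly equal quartiles, and their ranks follow the raw median signal without background subtraction. How the table was normalized is not given in the sources used here.

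For the scanner files, log2 intensity minus the log2 75th percentile of each array was taken over non-control spots, without outlier spots. Of 41174 probes, 24844 were named through RefSeq accessions (GRCm38.p6). Features well above background on at least 3 arrays were tested with limma (3.58.1, run in R 4.3.3) (linear model and moderated eBayes variance with a trend), p-values being adjusted by Benjamini-Hochberg over 26677 features, and the same features were tested in the value table. Between 72.8% and 82.3% of probes were well above background, no spot was saturated, and the number of arrays limits the precision. The labels say biological replicates, and give no number of animals, so a p-value here reflects only how these samples vary.

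Alternatives were quantile normalization, median scaling, normexp (offset 50, on the median signal and median local background, since no mean signal column was found), other filters and probe rules, eBayes without trend, array weights, a replicate block and leaving out each array. Those on raw median signal, and the repeats within the value table, were added after the data had been seen. The members, lists, gaps and alternatives were chosen with earlier results of these data known. All 46 genes were named by rule, with the 3 genes of smallest p per further muscle list, Perp, Xist and 3 Y-linked genes. So were the 10 most alike genes among those with at least the median span of the muscle genes. In the scanner files, deviations of same-numbered arrays from their group means correlated at 0.843, 0.876 and 0.193. The number is also the position on the slide, so these values cannot tell paired samples from shared position. The tests printed are unpaired, and the replicate block is an alternative.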

Additional observations from a re-analysis of the deposited data

How the results depend on the processing

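In the scanner files no muscle gene was called under any scaling, filter, probe rule, array weight, replicate block or single array left out. The replicate block, with the replicate number as a pairing term, called 1 feature and no muscle gene, as normexp and array weights each called 1 feature. Without the arrays against the Perp label, 12078 features and 31 muscle genes were called, with a median difference of -1.57, and without those against the male label 32 features and 5 muscle genes, with a range of the members' median over arrays of 0.57 against 2.47. The value table called 6269 features and 10 muscle genes, with a range of 0.88. Within the table same-numbered columns correlated at 0.408, 0.393 and -0.023 and 4 of the 6 correlated best with their own number, so they share only a number, and the replicate block called 1 feature and none of the 10 muscle genes (range 0.88). Leaving out the columns against the male label called 0 features and 0 muscle genes, with a median difference of 0.41 against -0.21 and a range of 0.46, and leaving out 1 column at a time gave 1 to 5899 features, 0 to 8 muscle genes, median differences of -0.47 to 0.02 and ranges of 0.74 to 0.98. The count of muscle genes highest on PN3, 16, became 27 under quantile normalization, 30 under median scaling, 27 on raw median signal with quantile normalization (range 1.26) and 31 without the arrays against the male label. Leaving out 1 array at a time gave 16 to 31 for that count, 0 features and 0 muscle genes called, median differences of -0.28 to 1.30 and ranges of 1.91 to 2.5. Of the 43 differences, 11 changed sign under normexp, 5 under quantile normalization, 4 under median scaling and 13 without PN1 or without PN3. Signal over background limits the dim members, of which 4 tested genes fell short of it on at least 1 array. The cause of these changes was not tested.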

Other observations

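Besides the muscle genes already named, the features at least 1 log2 unit higher on the scanner file PN3 than on every other array included Sln, the small regulator of the muscle calcium pump, by 1.70, and Apobec2, a deaminase-family protein of muscle, by 1.25. Cilp, a matrix protein of cartilage and tendon, had the largest gap of all, 3.48, and Gdf6, a bone morphogenetic protein family member, had 1.57. Cryga and Crygd, lens crystallins, had 1.36 and 1.37. In the value table, the column PN2 was highest for Sln by 1.82 and also for the cornified envelope genes Lce3f by 1.25, Sprr3 by 1.04 and Cnfn by 0.97, and for the brown fat gene Ucp1 by 1.04. These genes were picked after their values were seen and carry no test.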
